A study of Homo sapiens with 33 samples.

Results

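The clade B serpins of chromosome 18q21 are a row of 10 genes, SERPINB5, SERPINB12, SERPINB13, SERPINB4, SERPINB11, SERPINB3, SERPINB7, SERPINB2, SERPINB10 and SERPINB8, named here in the order in which they lie on the chromosome. All 10 symbols were found among the 56470 gene symbols of the count table. The genes were chosen by symbol, and the cluster was selected on the comparison of cetuximab with PBS, in which SERPINB13 and SERPINB2 are among the genes that differ most. Differences between cetuximab and PBS are therefore given for these genes as a description, with no p-value, and nothing is read from how many of them passed a threshold there. Tests are given for other comparisons, which are the level with PBS between lines and the change with day in the PBS libraries. The difference between the treatments in the change with day is tested as well. All of these draw on libraries that also entered the choice, the PBS comparisons on its PBS side. Their p-values therefore cannot be taken as independent of the choice.

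The data are bulk RNA-seq of SCC1 (UM-SCC-1), SCC6 (UM-SCC-6) and SCC25, established cell lines from head and neck squamous cell carcinoma (HNSCC), which received either PBS or the EGFR-blocking antibody cetuximab at 100 nM. There are 6 PBS libraries (days 0 to 5) and 5 cetuximab libraries (days 1 to 5) in each line, 33 in all, so that days stand in for replicates and p-values measure the spread between days. For SCC6 with cetuximab, 2 libraries carry the label of day 2 and no library that of day 1, and the pair is called 2a and 2b in the order of the table. The labels give hydrocortisone for SCC25 and, at a higher concentration, for SCC1, non-essential amino acids for SCC6, and fewer plated cells for SCC25, whereas the published methods name a single medium and a single plating density, so that a difference in culture between the lines is uncertain and could not be told apart from line. Levels are CPM, counts relative to library size, scaled by TMM over the 33 libraries, whose total counts ranged from 28508758 to 80727478, and 3 counts correspond to 0.0401 to 0.116 CPM. All 6 squamous epithelial markers (KRT5, KRT14, TP63, CDH1, DSP and EPCAM) had a median of at least 1 CPM in every group. KRT5 and KRT14 were low in SCC6, with PBS medians of 2.39 and 4.09 CPM on days 1 to 5. Those of SCC1 were 413 and 233 CPM, and those of SCC25 5200 and 3280 CPM. In a bulk library, fewer cells that express a gene and less RNA per cell cannot be told apart.

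Serpins are a family of protease inhibitors that trap a protease by a large change of shape after it cleaves their exposed loop. Clade B serpins lack a classical signal peptide and act mainly inside cells, and several of them are made in squamous epithelium, where they are known from keratinocyte differentiation and from squamous carcinoma. SERPINB2 (PAI-2) inhibits urokinase and tissue plasminogen activator. SERPINB13 (headpin) inhibits the cysteine cathepsins K and L, SERPINB3 (squamous cell carcinoma antigen 1) inhibits cysteine cathepsins, and its close copy SERPINB4 (squamous cell carcinoma antigen 2) inhibits the serine proteases cathepsin G and chymase. SERPINB5 (maspin) is a member without protease inhibition that is studied as a tumour suppressor, SERPINB8 inhibits furin, SERPINB7 is the gene mutated in Nagashima-type palmoplantar keratosis, and SERPINB10 (bomapin) is best known from blood cells.

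On GRCh37, the cluster spans 542.8 kb of chromosome 18, from 61144191 to 61687013, with the BCL2, KDSR and VPS4B genes on the SERPINB5 side. SERPINB3 and SERPINB4 lie on the minus strand and the other 8 members on the plus strand. SERPINB11 overlaps SERPINB3 on the opposite strand, and SERPINB8 overlaps the HMSD gene. SERPINB3 and SERPINB4 share 95.7% of 1707 aligned bases of their canonical transcripts, and 690 of the 1677 windows of 31 bases in each transcript (41.1%) occur in a transcript of the other, so that the split of reads between these 2 genes is uncertain. No other pair of members shared such a window.

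RefSeq promoter windows on GRCh38.p14, of 250 bases before and 50 after the annotated start, were available for 8 of the 10 members (11 windows in all). Those of SERPINB13 and SERPINB2 are shown because these genes differed most between the treatments. Capitals mark matches of 2 motifs searched on both strands, TGACTCA (the AP-1 consensus) and TATAAA (the TATA box), and the 2 motifs did not overlap each other in any window.
SERPINB13, chr18:63587093-63587392, plus strand: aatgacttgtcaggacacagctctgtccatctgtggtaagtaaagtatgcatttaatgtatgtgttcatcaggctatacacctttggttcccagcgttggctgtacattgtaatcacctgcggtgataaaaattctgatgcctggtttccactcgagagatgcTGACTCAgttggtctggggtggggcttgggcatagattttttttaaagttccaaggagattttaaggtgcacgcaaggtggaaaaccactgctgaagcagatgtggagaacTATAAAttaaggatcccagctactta
SERPINB2, chr18:63887455-63887754, plus strand: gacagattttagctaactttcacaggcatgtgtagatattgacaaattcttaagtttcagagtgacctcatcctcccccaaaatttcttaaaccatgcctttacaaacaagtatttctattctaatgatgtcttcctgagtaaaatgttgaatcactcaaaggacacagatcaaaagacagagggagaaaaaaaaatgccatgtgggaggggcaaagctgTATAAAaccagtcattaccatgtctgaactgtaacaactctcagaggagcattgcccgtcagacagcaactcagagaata
The SERPINB13 window held TGACTCA at bases -87 to -81 from the start, and the SERPINB2 window held TATAAA at bases -30 to -25. The TATAAA of the SERPINB13 window lay at bases 24 to 29, after the start. TGACTCA was found in 4 of the 11 windows, in 3 genes (SERPINB13, SERPINB7 and SERPINB8), and in 4.9% of all 35116 windows of the table. TATAAA was found in windows of 5 members and in 11.5% of all windows. GCCNNNGGC, the motif of TFAP2 factors, was found in none of the 11 windows and in 23.2% of all windows. These matches describe letters in a window and not binding.

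The windows of SERPINB3 and SERPINB4 are shown because the 2 genes moved side by side in the data below. They are identical at 296 of 300 bases (98.7%), and capitals mark the 4 bases that differ, which are G126A, G201A, C228T and T260C when SERPINB3 is named first and bases are counted from the 5′ end of the window.
SERPINB3, chr18:63661844-63662143, minus strand: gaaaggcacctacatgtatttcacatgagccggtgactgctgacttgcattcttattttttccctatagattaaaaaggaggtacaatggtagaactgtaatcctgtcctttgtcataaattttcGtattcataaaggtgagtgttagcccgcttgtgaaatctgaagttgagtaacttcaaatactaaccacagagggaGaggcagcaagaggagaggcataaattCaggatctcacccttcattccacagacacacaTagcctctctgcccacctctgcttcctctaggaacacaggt
SERPINB4, chr18:63644207-63644506, minus strand: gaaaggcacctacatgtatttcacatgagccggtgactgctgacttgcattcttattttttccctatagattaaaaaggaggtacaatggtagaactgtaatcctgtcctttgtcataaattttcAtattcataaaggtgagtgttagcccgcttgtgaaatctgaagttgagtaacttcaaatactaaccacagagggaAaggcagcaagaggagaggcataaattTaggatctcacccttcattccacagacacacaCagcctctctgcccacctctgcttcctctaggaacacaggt
Neither window held TGACTCA or TATAAA.

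The members covered very different levels. Per kilobase of canonical transcript, SERPINB2 had a median of 977 CPM per kb in the PBS libraries of SCC1 on days 1 to 5, which ranked it 42nd among 29806 genes, and 681 CPM per kb in SCC6 (rank 94), but 6.27 CPM per kb in SCC25 (rank 7254). SERPINB5 was the highest member in SCC25, with 139 CPM per kb (rank 413), and had 69.8 CPM per kb in SCC1 and 133 CPM per kb in SCC6. SERPINB7 and SERPINB8 lay between 4.31 and 11.7 CPM per kb in all 3 lines with PBS. SERPINB11 and SERPINB12 were at or near 0, with at most 3 counts of SERPINB11 and 6 counts of SERPINB12 in any library, and neither passed the filter on low counts in any comparison.

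**Figure D1:**
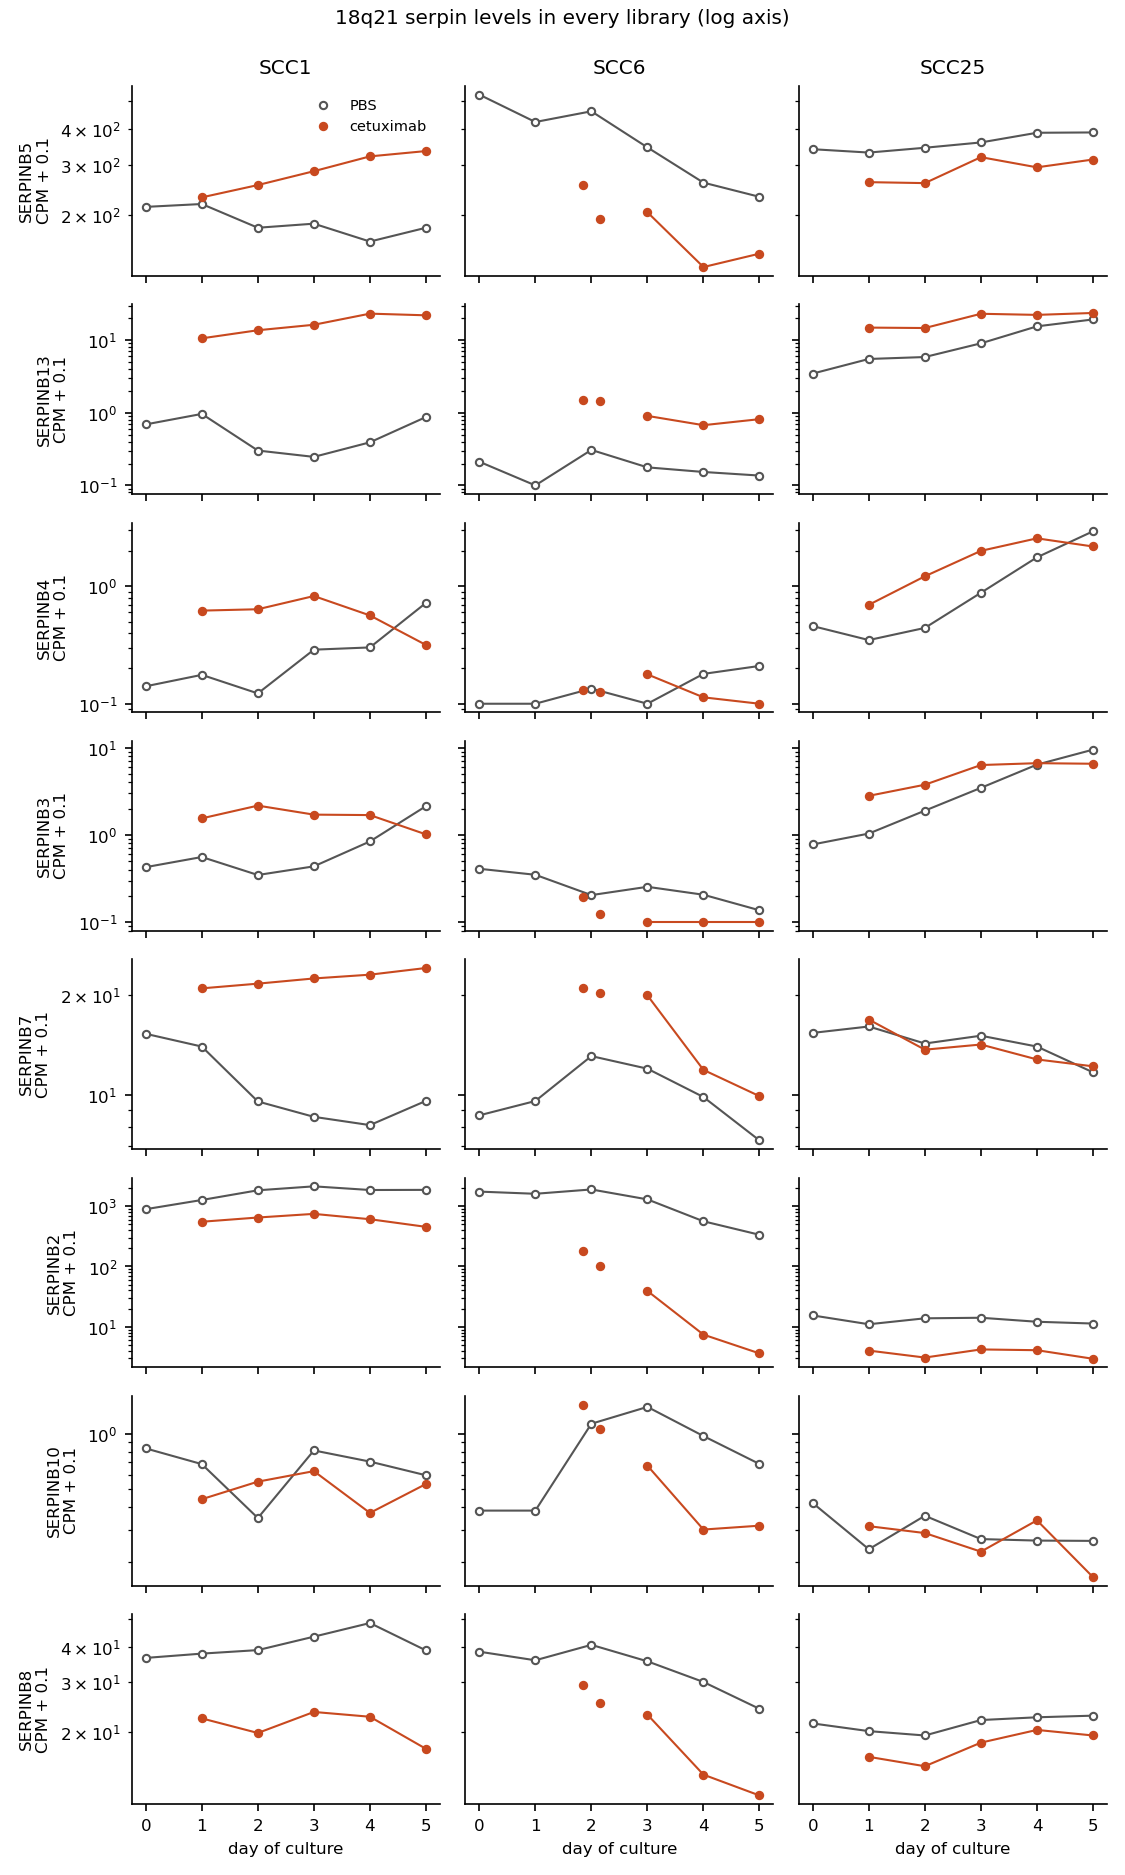
CPM + 0.1 on a log axis against day of culture for the 8 members with more than a few counts, in rows along the chromosome, for SCC1, SCC6 and SCC25, with open grey points for PBS and filled orange points for cetuximab. The cetuximab libraries 2a and 2b of SCC6 are drawn on either side of day 2 without a line. SERPINB2 lies near 10 CPM in SCC25 with PBS and near 1000 CPM in SCC1, and the points of the 2 treatments separate for SERPINB13 and SERPINB2 in SCC1 and SCC6.

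The first question was how the lines differed before any drug. Apart from day 0, the PBS libraries also entered the choice of the cluster. A gene chosen for a large difference from PBS may have extreme PBS values, so that the p-values between lines cannot be taken as independent of the choice. With PBS, SERPINB13, SERPINB3 and SERPINB4 were higher in SCC25 than in both other lines, and SERPINB2, SERPINB8 and SERPINB10 were lower. In a single edgeR fit of the 18 PBS libraries over 19746 genes, 8 of the 8 members tested differed between SCC1 and SCC25 (69.0% of all genes), 7 between SCC6 and SCC25 (72.1% of all genes) and 4 between SCC1 and SCC6 (69.1% of all genes). The PBS libraries of SCC25 shared no flow cell with those of the other lines, so that line and flow cell cannot be told apart against SCC25. SCC1 day 5 and SCC6 days 0 and 1 shared one. On it SERPINB5 had 181 CPM in SCC1 against 527 and 423 CPM in SCC6, and SERPINB13 0.774 against 0.112 and 0.0 CPM. SERPINB3 had 2.04 against 0.309 and 0.249 CPM, and SERPINB8 38.7 against 38.3 and 35.7 CPM. These days are unlike, so that line and day cannot be told apart there. On other flow cells, SERPINB3 of SCC1 had 0.327 and 0.458 CPM on days 0 and 1, and SERPINB5 of SCC6 had 232 CPM on day 5.

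SERPINB2 had 10.9, 12.8 and 15.3 CPM (lowest, median and highest of 6 libraries) with PBS in SCC25, against 894, 1850 and 2140 CPM in SCC1 and 336, 1450 and 1900 CPM in SCC6. The SCC25 libraries lay below all libraries of the other lines. The log2 difference was 7.00 (SE 0.40) for SCC1 minus SCC25 (edgeR adjusted p = 5e-12) and 6.60 (SE 0.39) for SCC6 minus SCC25 (edgeR adjusted p = 8.1e-12), while SCC1 and SCC6 overlapped (log2 difference 0.40, SE 0.31, edgeR adjusted p = 0.26). SERPINB8 followed the same order at a smaller size, with a mean of 40.5 ± 4.49 CPM in SCC1, 34.0 ± 6.06 in SCC6 and 21.3 ± 1.35 in SCC25 (SD, n = 6). Its difference was 0.93 (SE 0.11) for SCC1 minus SCC25 (edgeR adjusted p = 1.6e-07) and 0.68 (SE 0.11) for SCC6 minus SCC25 (edgeR adjusted p = 8.8e-06).

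SERPINB13 had 3.37, 7.35 and 19.2 CPM (lowest, median and highest of 6) in SCC25, 0.147, 0.442 and 0.865 CPM in SCC1 and 0.0, 0.0652 and 0.208 CPM in SCC6. The SCC25 libraries were all above those of the other lines, and SCC1 overlapped SCC6. The log2 difference was -4.34 (SE 0.47) for SCC1 minus SCC25 (edgeR adjusted p = 7.6e-08), -6.86 (SE 0.62) for SCC6 minus SCC25 (edgeR adjusted p = 4.5e-09) and 2.51 (SE 0.74) for SCC1 minus SCC6 (edgeR adjusted p = 0.0051). SERPINB13 in SCC6 rests on 11 counts in the 5 PBS libraries of days 1 to 5.

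SERPINB3 had a mean of 3.75 ± 3.46 CPM in SCC25, 0.692 ± 0.684 in SCC1 and 0.160 ± 0.102 in SCC6 (SD, n = 6), and SERPINB4 had 1.04 ± 1.03, 0.192 ± 0.224 and 0.0374 ± 0.0474 CPM. The log2 differences of SCC1 minus SCC25 were -2.43 (SE 0.60, edgeR adjusted p = 0.0012) for SERPINB3 and -2.41 (SE 0.66, edgeR adjusted p = 0.0032) for SERPINB4. For SCC1 minus SCC6, SERPINB3 differed by 2.05 (SE 0.80, edgeR adjusted p = 0.029) and SERPINB4 by 2.28 (SE 1.12, edgeR adjusted p = 0.078). Without SCC1 day 5 the SERPINB3 value fell to 1.34 (edgeR adjusted p = 0.13), and it missed the threshold as well without SCC6 day 2, 4 or 5 (edgeR adjusted p from 0.054 to 0.06).

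SERPINB5 had a mean of 191 ± 21.8 CPM in SCC1, 374 ± 116 in SCC6 and 359 ± 25 in SCC25 (SD, n = 6). It was lower in SCC1 by a log2 difference of -0.98 (SE 0.15) against SCC6 (edgeR adjusted p = 9.3e-06) and of -0.91 (SE 0.15) against SCC25 (edgeR adjusted p = 2.2e-05), and the difference between SCC6 and SCC25 was 0.07 (SE 0.15, edgeR adjusted p = 0.70). SERPINB7 lay within 7.18 to 16.0 CPM in all 18 PBS libraries, and its differences against SCC25 were -0.42 (SE 0.16, edgeR adjusted p = 0.03) for SCC1 and -0.52 (SE 0.17, edgeR adjusted p = 0.0084) for SCC6. SERPINB10 had a mean of 0.564 ± 0.179 CPM in SCC1, 0.729 ± 0.420 in SCC6 and 0.200 ± 0.0722 in SCC25 (SD, n = 6), and was higher than in SCC25 in both other lines (log2 1.48, SE 0.38, and 1.84, SE 0.38, edgeR adjusted p = 0.0017 and 0.00024). The call of SERPINB8 between SCC1 and SCC6 (0.25, SE 0.10, edgeR adjusted p = 0.044) was lost without 12 of the 18 libraries in turn, and that of SERPINB7 between SCC1 and SCC25 without SCC1 day 2, 3, 4 or 5 or SCC25 day 0 or 1.

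**Figure D2:**
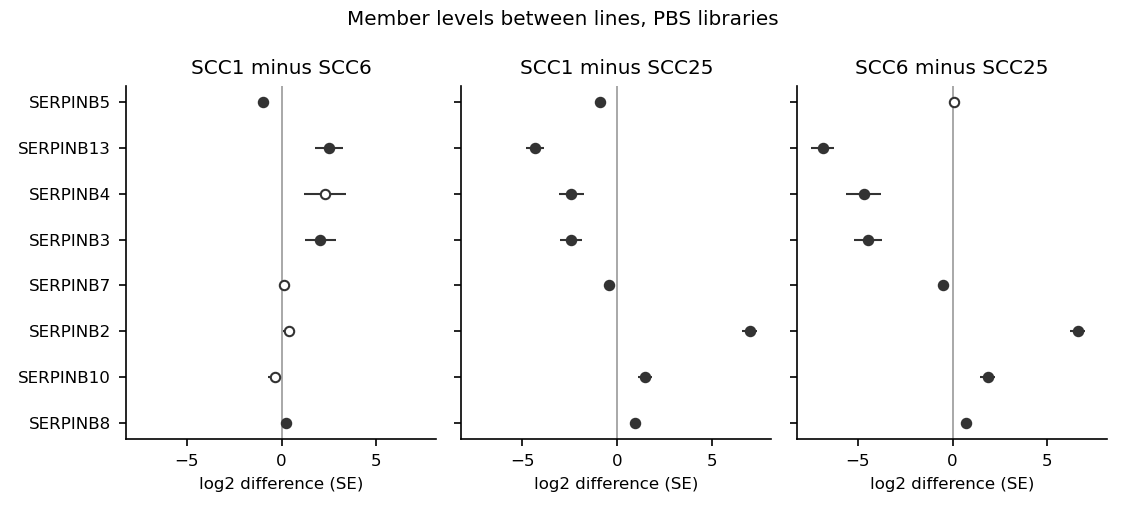
Log2 difference in level between lines for the PBS libraries (x axis, same scale in the 3 panels) for the 8 members tested, in chromosome order, with bars of 1 SE and filled points for an adjusted p under 0.05. SERPINB2 lies near 7 against SCC25 in both other lines, and SERPINB13, SERPINB3 and SERPINB4 lie on the negative side against SCC25.

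The second question was how the levels changed over 5 days of culture with PBS alone. These are the same PBS libraries, so that the p-values of the slopes cannot be taken as independent of the choice either. In SCC25, 3 of the 8 members tested changed with day (10.7% of all 20017 genes), and all 3 rose. They are SERPINB3, SERPINB4 and SERPINB13, whose only neighbour between them on the chromosome is SERPINB11. All 6 PBS libraries of SCC25 came from 1 flow cell, days 0 to 3 from one lane of it and days 4 and 5 from another, and the part of the lane was not tested.

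SERPINB3 had 0.678, 0.937, 1.80, 3.37, 6.31 and 9.42 CPM on days 0 to 5 in SCC25 with PBS. Each day was above the one before, and day 5 was 13.9-fold above day 0. The slope was 0.81 log2 per day (SE 0.04, edgeR adjusted p = 2.7e-07). SERPINB4 had 0.359, 0.249, 0.343, 0.783, 1.67 and 2.85 CPM, flat to day 2 and rising after it, with a slope of 0.74 (SE 0.09, edgeR adjusted p = 0.00023). SERPINB13 had 3.37, 5.41, 5.76, 8.95, 15.4 and 19.2 CPM, again with each day above the one before, and its slope was 0.51 (SE 0.03, edgeR adjusted p = 2.5e-06). All 3 calls held under each of 10 alternatives, with an adjusted p of at most 0.013.

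The neighbours on both sides stayed nearly level in the same libraries. SERPINB5 had a slope of 0.05 (SE 0.02, edgeR adjusted p = 0.069), SERPINB7 of -0.07 (SE 0.03, edgeR adjusted p = 0.10), SERPINB2 of -0.05 (SE 0.03, edgeR adjusted p = 0.38) and SERPINB8 of 0.03 (SE 0.02, edgeR adjusted p = 0.36). SERPINB5 passed the threshold with DESeq2 (adjusted p = 0.03). Of 12 genes of suprabasal squamous cells, 9 were tested and 5 changed with day (10.7% of all genes did), all of them upward. The median slope over the list was 0.39, against -0.0 over all genes. Among the list's 4 genes of highest level, KRT13, a keratin of suprabasal mucosal cells, rose by 0.88 per day (SE 0.02, edgeR adjusted p = 7.7e-10), TGM1, which crosslinks the cornified envelope, by 0.60 (SE 0.04, edgeR adjusted p = 4.4e-06) and IVL, an envelope protein, by 0.39 (SE 0.09, edgeR adjusted p = 0.02). KRT10, a suprabasal keratin of skin, had a slope of -0.0 (SE 0.03, edgeR adjusted p = 1.0). The other 2 that rose, KRT1 and KRT4, were named after their values were seen. The summed level of the 12 genes went from 34.6 to 148 CPM over days 1 to 5, and its part in the serpins' rise was not tested.

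In SCC6, 3 of the 5 members tested changed with day (32.7% of all 17757 genes), and all 3 fell. SERPINB2 had 1750, 1610, 1900, 1300, 563 and 336 CPM on days 0 to 5 with PBS, level to day 2 and lower on each day after it, with a slope of -0.50 log2 per day (SE 0.10, edgeR adjusted p = 0.0064). SERPINB5 had 527, 423, 461, 345, 260 and 232 CPM and a slope of -0.25 (SE 0.03, edgeR adjusted p = 0.0011). SERPINB8 had 38.3, 35.7, 40.5, 35.4, 29.9 and 24.0 CPM and a slope of -0.14 (SE 0.04, edgeR adjusted p = 0.019). The PBS libraries of days 0 and 1 came from another flow cell than those of days 2 to 5. Within days 2 to 5 the slopes kept their sign and stayed past the threshold. There SERPINB7 passed it as well (-0.28, edgeR adjusted p = 0.013). SERPINB2 missed the threshold without day 5 (-0.36, edgeR adjusted p = 0.054), and SERPINB8 without day 0, 4 or 5 (edgeR adjusted p from 0.052 to 0.17).

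In SCC1, none of the 7 members tested passed the threshold with edgeR (2.49% of all 19045 genes did). At an unadjusted p under 0.05 there were 4 members and 3981 genes, and DESeq2 called 2 members and 1485 genes. SERPINB2 had 894, 1270, 1840, 2140, 1860 and 1870 CPM on days 0 to 5, with a slope of 0.20 (SE 0.06, edgeR adjusted p = 0.11). SERPINB3 had 0.327, 0.458, 0.247, 0.336, 0.742 and 2.04 CPM, where day 5 stood apart from the others, with a slope of 0.52 (SE 0.13, edgeR adjusted p = 0.081). SERPINB7 had 15.2, 13.9, 9.45, 8.48, 8.0 and 9.49 CPM, with a slope of -0.17 (SE 0.05, edgeR adjusted p = 0.087). Day 5 was the single SCC1 PBS library from a second flow cell, and without it SERPINB2 (0.28), SERPINB5 (-0.11) and SERPINB7 (-0.27) passed the threshold (edgeR adjusted p = 0.029, 0.038 and 0.013).

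**Figure D3:**
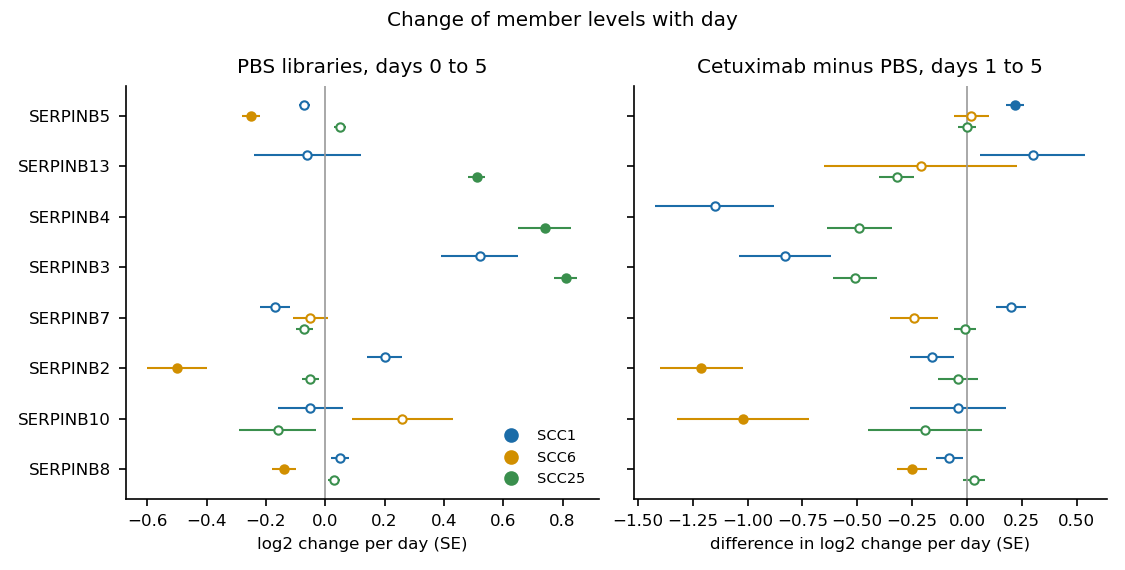
Left, log2 change per day in the PBS libraries of days 0 to 5, and right, the difference in log2 change per day between cetuximab and PBS over days 1 to 5, for each member and line, with bars of 1 SE and filled points for an adjusted p under 0.05. SERPINB13, SERPINB4 and SERPINB3 of SCC25 stand at 0.51 to 0.81 on the left, and SERPINB2 and SERPINB10 of SCC6 at -1.21 and -1.02 on the right.

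The third question was what the levels were with cetuximab. These are the values by which the cluster was selected, and the members' counts below are no evidence about the cluster. In the fits of days 1 to 5, 5 of the 8 members above the filter fell under the threshold of the adjusted p in SCC1 (44.8% of all 17984 genes), 4 of 6 in SCC6 (30.1% of all 17387 genes) and 2 of 7 in SCC25 (18.3% of all 19101 genes). The median log2 difference over the members tested was 0.82 in SCC1, -0.54 in SCC6 and -0.03 in SCC25, against 0.021, 0.004 and 0.006 over all genes.

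SERPINB13, the inhibitor of cathepsins K and L, had 0.865, 0.202, 0.147, 0.292 and 0.774 CPM with PBS on days 1 to 5 in SCC1 and 10.5, 13.6, 16.2, 23.1 and 21.9 CPM with cetuximab. The groups did not overlap, and every cetuximab library was more than 10 CPM. The fitted log2 difference was 5.25 (SE 0.39), which is 38.1-fold. In SCC6 it had 0.0, 0.208, 0.0772, 0.0531 and 0.0366 CPM with PBS, from 11 counts in all, and 1.39 (2a), 1.34 (2b), 0.806, 0.575 and 0.717 CPM with cetuximab, from 222 counts. These groups did not overlap either, with a log2 difference of 3.63 (SE 0.53), and the highest SCC6 value with cetuximab was below the lowest PBS value of SCC25. In SCC25 it had 5.41, 5.76, 8.95, 15.4 and 19.2 CPM with PBS and 14.8, 14.6, 23.0, 22.2 and 23.6 CPM with cetuximab, groups that overlapped, with a log2 difference of 0.83 (SE 0.32). The ratio of the same day narrowed there from 1.44 log2 on day 1 to 0.29 on day 5.

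The flow cells were shared unevenly between the treatments. In SCC1 the single PBS library on the flow cell of the cetuximab libraries is day 5, which had 0.774 CPM of SERPINB13 against 10.5 to 23.1 CPM, and the fit with flow cell as a covariate gave 4.47. In SCC6 the flow cell shared by PBS days 2 to 5 and by 2a, 2b and day 3 of cetuximab held 0.0366 to 0.208 CPM against 0.806 to 1.39 CPM, and the fit gave 3.62. In SCC25 the 2 cetuximab libraries on the flow cell of all PBS libraries, days 1 and 2, had 14.8 and 14.6 CPM against 5.41 and 5.76 CPM on the same days, and the fit gave 0.43. That fit sets these 2 libraries against PBS days 1 to 5, of which the later ones were higher. For every member the covariate fit has this form in SCC25, and in SCC1 it rests on PBS day 5 as the PBS side.

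Over the 6 groups of days 1 to 5, the medians of SERPINB13 were 22.2 CPM in SCC25 with cetuximab, 16.2 in SCC1 with cetuximab, 8.95 in SCC25 with PBS, 0.806 in SCC6 with cetuximab, 0.292 in SCC1 with PBS and 0.0531 in SCC6 with PBS. In this order the one pair of neighbours that did not overlap was SCC25 with PBS and SCC6 with cetuximab. By the RMS difference of log2(CPM + 0.1), each gene centred on its mean over the 30 libraries of days 1 to 5, the genes outside the cluster with the most similar pattern were NUPR1 (0.96), ABC7-42404400C24.1 (1.07) and AKR1B10 (1.17), where the median over 14112 genes was 2.79.

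SERPINB2, the inhibitor of urokinase and tissue plasminogen activator, was lower with cetuximab on every day in all 3 lines. In SCC1 it had 1270, 1840, 2140, 1860 and 1870 CPM with PBS on days 1 to 5 and 553, 650, 747, 609 and 455 CPM with cetuximab. The groups did not overlap, and the log2 difference was -1.56 (SE 0.14). In SCC6 it had 1610, 1900, 1300, 563 and 336 CPM with PBS and 181 (2a), 103 (2b), 39.2, 7.30 and 3.51 CPM with cetuximab. The highest cetuximab value was below the lowest PBS value, and the log2 difference was -4.11 (SE 0.96). In SCC25 it had 10.9, 13.7, 14, 12.0 and 11.2 CPM with PBS and 3.92, 2.98, 4.10, 3.98 and 2.84 CPM with cetuximab, with no overlap and a log2 difference of -1.80 (SE 0.13).

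With flow cell as a covariate the SERPINB2 difference was -1.62 in SCC1, -3.26 in SCC6 and -1.84 in SCC25. Its group medians were 1860 CPM in SCC1 with PBS, 1300 in SCC6 with PBS, 609 in SCC1 with cetuximab, 39.2 in SCC6 with cetuximab, 12.0 in SCC25 with PBS and 3.92 in SCC25 with cetuximab, where SCC1 and SCC6 with cetuximab, and the 2 SCC25 groups, were the neighbours without overlap. SERPINB2 with cetuximab in SCC6 came down on days 4 and 5 to 7.30 and 3.51 CPM, below the lowest SCC25 library with PBS (10.9 CPM). The genes with the most similar pattern were PI3, the elastase inhibitor elafin, with an RMS difference of 1.59, TRIML2 (1.81) and PLS1 (2.00), where the median over all genes was 3.57.

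SERPINB5, maspin, differed in sign between the lines. In SCC1 it had 219, 181, 187, 162 and 181 CPM with PBS on days 1 to 5 and 231, 255, 285, 321 and 335 CPM with cetuximab, higher in every cetuximab library, with a log2 difference of 0.63 (SE 0.11). In SCC6 it had 423, 461, 345, 260 and 232 CPM with PBS and 256 (2a), 194 (2b), 205, 132 and 147 CPM with cetuximab, which overlapped, with -0.90 (SE 0.22). In SCC25 it had 331, 344, 359, 388 and 389 CPM with PBS and 261, 259, 319, 294 and 313 CPM with cetuximab, all below the PBS libraries, with -0.33 (SE 0.07). With flow cell as a covariate the values were 0.67, -0.58 and -0.48 in SCC1, SCC6 and SCC25.

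SERPINB7, the palmoplantar keratosis gene, had 8.0 to 13.9 CPM with PBS in SCC1 and 20.9 to 24.1 CPM with cetuximab, without overlap (log2 1.19, SE 0.13). In SCC6 it was higher on every day (0.67, SE 0.24) with ranges that overlapped, 7.18 to 13.0 and 9.81 to 21 CPM. In SCC25 the difference was -0.03 (SE 0.11). SERPINB8, the furin inhibitor, was lower on every day in all 3 lines, with 37.7 to 48.4 against 17.3 to 23.4 CPM in SCC1 (log2 -0.97, SE 0.09), 24.0 to 40.5 against 11.8 to 29.1 CPM in SCC6 (-0.70, SE 0.24) and 19.3 to 22.7 against 15.0 to 20.2 CPM in SCC25 (-0.27, SE 0.09). The groups of SERPINB8 overlapped in SCC6 and SCC25. With flow cell as a covariate SERPINB8 was at -0.87, -0.34 and -0.45 and SERPINB7 at 1.25, 0.96 and 0.11 in SCC1, SCC6 and SCC25.

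SERPINB3 and SERPINB4 crossed over within the time course. In SCC1, SERPINB3 had 0.458, 0.247, 0.336, 0.742 and 2.04 CPM with PBS on days 1 to 5 and 1.45, 2.07, 1.61, 1.59 and 0.915 CPM with cetuximab, so that it was higher with cetuximab on days 1 to 4 and lower on day 5. In SCC25 it had 0.937, 1.80, 3.37, 6.31 and 9.42 CPM with PBS and 2.71, 3.67, 6.24, 6.56 and 6.46 CPM with cetuximab, and was again lower on day 5 alone. SERPINB4, whose split of reads from SERPINB3 is uncertain, did the same in both lines. On day 5 it had 0.624 CPM with PBS against 0.217 with cetuximab in SCC1, from 29.3 and 9.0 counts, and 2.85 against 2.09 CPM in SCC25. The fitted differences over the 5 days were 1.00 (SE 0.47) and 1.12 (SE 0.54) in SCC1 and 0.22 (SE 0.50) and 0.46 (SE 0.57) in SCC25 for SERPINB3 and SERPINB4. With flow cell as a covariate the SCC1 values became -0.41 and -0.33 and the SCC25 values -0.45 and -0.45. The SCC1 fit, like the crossing in SCC1, rests on PBS day 5, the single PBS library on the flow cell of the cetuximab libraries. The SCC25 fit sets cetuximab days 1 and 2 against PBS days 1 to 5, of which the later ones were higher. On days 1 and 2 themselves, the SCC25 ratios to PBS were 1.44 and 0.99 log2 for SERPINB3 and 1.0 and 1.46 for SERPINB4. In SCC6, SERPINB3 and SERPINB4 had at most 8 counts and 3 counts in any library of days 1 to 5 and were not tested.

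SERPINB10 differed by -0.38 (SE 0.28) in SCC1 and -0.39 (SE 0.55) in SCC6, with 0.247 to 0.714 against 0.270 to 0.527 CPM and 0.281 to 1.31 against 0.200 to 1.35 CPM, and was under the filter in SCC25. With flow cell as a covariate it was at -0.28 in SCC1 and 0.00 in SCC6.

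**Figure D4:**
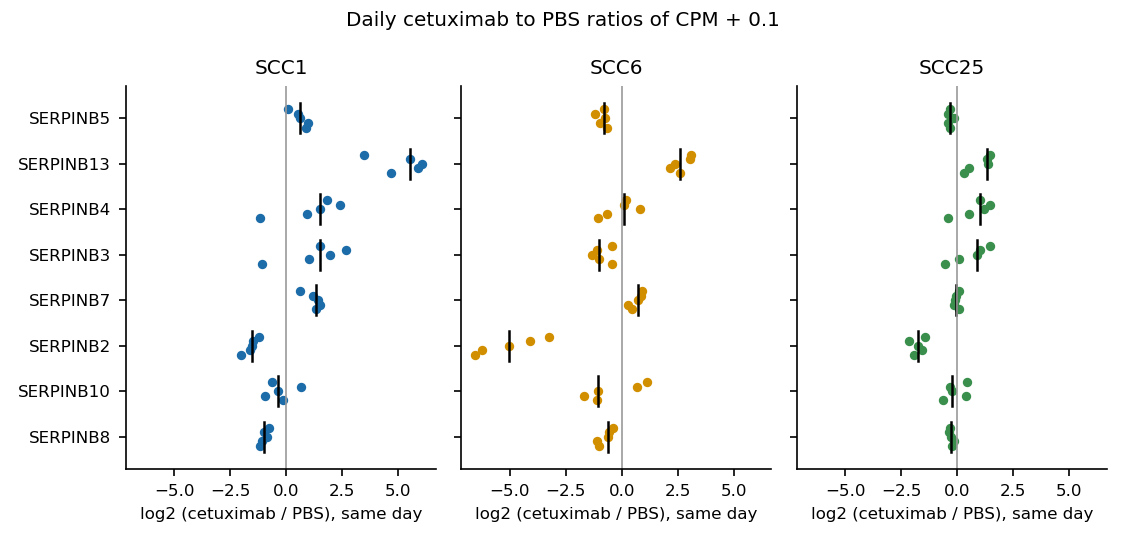
Log2 ratio of cetuximab to PBS of the same day, from CPM + 0.1, for each member in the 3 lines (x axis, same scale), with 1 point for each cetuximab library, days from top to bottom, and a black line at the median. In SCC6 the 2 libraries 2a and 2b are set against the mean of PBS days 1 and 2. SERPINB13 lies right of 0 and SERPINB2 left of 0 on every day in all 3 lines, and SERPINB5 changes side between SCC1 and the other lines.

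The fourth question was whether the change with day differed between the treatments. This is not the mean difference by which the cluster was selected. It draws on the same libraries, however, so that its p-values cannot be taken as independent of the choice. In SCC6, 3 of the 6 members tested differed (25.5% of all 19150 genes), all with a lower slope with cetuximab than with PBS. SERPINB2 fell by 1.87 log2 per day (SE 0.16) with cetuximab and by 0.66 (SE 0.12) with PBS over the same days, a difference of -1.21 (SE 0.19, edgeR adjusted p = 0.0052). SERPINB8 had slopes of -0.43 (SE 0.06) and -0.18 (SE 0.05), a difference of -0.25 (SE 0.07, edgeR adjusted p = 0.033). SERPINB10, with at most 42.9 counts in a library, had slopes of -0.92 (SE 0.22) and 0.10 (SE 0.20), a difference of -1.02 (SE 0.30, edgeR adjusted p = 0.031). These terms need a day for 2a and 2b. With 2b taken as day 1, none of the 3 passed the threshold (SERPINB2 -0.90, edgeR adjusted p = 0.061), and with 2a taken as day 1 SERPINB2 and SERPINB10 did. SERPINB2 kept its call without any 1 library, SERPINB10 lost it without PBS day 1 or 4 or cetuximab 2a, 2b or day 4, and SERPINB8 without PBS day 1 or 4 or cetuximab 2a, day 4 or day 5. Cetuximab days 4 and 5 of SCC6 came from a flow cell that held no PBS library, so that the late part of this slope and the flow cell cannot be told apart.

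In SCC1, 1 of the 8 members tested differed (0.524% of all 19660 genes). SERPINB5 had a slope of 0.14 (SE 0.03) with cetuximab and -0.08 (SE 0.03) with PBS, a difference of 0.22 (SE 0.04, edgeR adjusted p = 0.032). The difference kept its size, 0.16 to 0.27, in all 14 alternatives, but the call was lost without any one of the 5 cetuximab libraries or of PBS days 1, 3 and 4, where the edgeR adjusted p was 0.051 to 0.18. SERPINB3 (-0.83, SE 0.21) and SERPINB4 (-1.15, SE 0.27), the genes that crossed over, had an edgeR adjusted p of 0.14 and 0.11. SERPINB3 passed the threshold in 3 of 14 alternatives, among them DESeq2 (adjusted p = 0.036) and the fit without PBS day 1 (-1.26, edgeR adjusted p = 0.015). Over the 14 its difference was -1.26 to -0.45, with an adjusted p of up to 0.54 (edgeR or DESeq2). SERPINB4 passed it in 1 of 13.

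In SCC25, no gene passed the threshold with edgeR (0.0% of 20740 genes, with 1275 at an unadjusted p under 0.05, and 30 genes called by DESeq2). SERPINB3 had slopes of 0.84 (SE 0.07) with PBS and 0.33 (SE 0.07) with cetuximab, a difference of -0.51 (SE 0.10, unadjusted p = 0.00031, edgeR adjusted p = 0.37), and was 1 of the 30 genes called by DESeq2 (adjusted p = 0.0045). SERPINB13 (-0.32, SE 0.08) and SERPINB4 (-0.49, SE 0.15) lay on the same side (edgeR adjusted p = 0.61 and 0.66). Without cetuximab day 3, SERPINB13 and SERPINB3 passed the threshold (edgeR adjusted p = 0.03 and 0.012), and with day as a block 1 gene did, which was no member. These terms and the slopes with PBS share the PBS libraries of days 1 to 5.

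Along the chromosome, the cetuximab differences of neighbouring members were of unlike size. In SCC1 the 5 members tested from SERPINB5 to SERPINB7 were all higher with cetuximab and the 3 from SERPINB2 to SERPINB8 all lower, a split that was noticed in the values and not tested. It did not hold with flow cell as a covariate, where SERPINB3 and SERPINB4 were at -0.41 and -0.33, nor on day 5, when their ratios to PBS were -1.08 and -1.19 log2. These are not separate checks, since both rest on PBS day 5, the single SCC1 PBS library on the flow cell of the cetuximab libraries. SCC6 did not share the split, since SERPINB5 was lower there. Of the 9 flanking genes, 7 were tested in SCC1 and 2 passed the threshold (44.8% of all genes), BCL2 (-0.75, SE 0.12, edgeR adjusted p = 0.00039) and DSEL (0.70, SE 0.13, edgeR adjusted p = 0.00083). In SCC6, 3 of 6 passed it (30.1% of all genes), KDSR (-0.32, SE 0.09, edgeR adjusted p = 0.016), PHLPP1 (-0.53, SE 0.18, edgeR adjusted p = 0.041) and TMX3 (-0.34, SE 0.12, edgeR adjusted p = 0.046). In SCC25, 2 of 6 did (18.3% of all genes), BCL2 (-0.72, SE 0.15, edgeR adjusted p = 0.0057) and KDSR (-0.20, SE 0.05, edgeR adjusted p = 0.016). VPS4B, the nearest flanking gene on the SERPINB5 side, did not pass the threshold in any line (0.07, SE 0.05, in SCC1, -0.26, SE 0.11, in SCC6 and -0.01, SE 0.06, in SCC25), and HMSD, tested in SCC1 alone, had -0.26 (SE 0.36, edgeR adjusted p = 0.59).

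**Figure D5:**
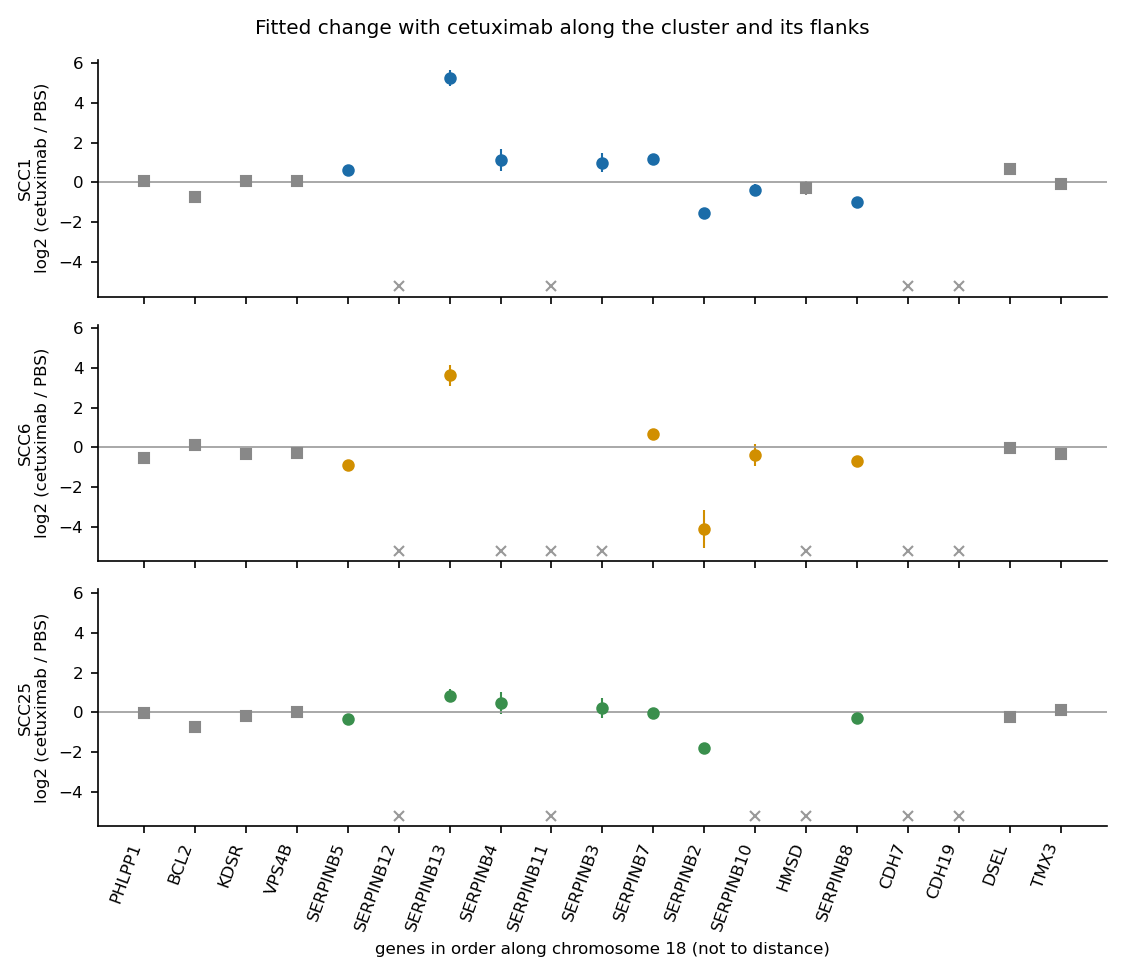
Fitted log2 ratio of cetuximab to PBS over days 1 to 5 (y axis, bars of 1 SE) for the cluster (coloured circles) and its flanking genes (grey squares) in the order of their starts along chromosome 18, in the 3 lines. Crosses at the foot of a panel mark genes that were not tested. SERPINB13 and SERPINB2 stand out from their neighbours, and the flanking genes lie between -0.75 and 0.70.

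The other clade B serpins, on chromosome 6p25, were compared because they belong to the same family but not to the cluster. SERPINB1, an inhibitor of neutrophil proteases, fell with cetuximab in SCC1 (-0.72, SE 0.19, edgeR adjusted p = 0.0079) and SCC6 (-1.66, SE 0.15, edgeR adjusted p = 2.6e-05), and had 0.32 (SE 0.16, edgeR adjusted p = 0.18) in SCC25. SERPINB6 fell by 0.15 (SE 0.05) in SCC1 and by 0.54 (SE 0.09) in SCC6 (edgeR adjusted p = 0.017 and 0.0011), and had -0.03 (SE 0.07, edgeR adjusted p = 0.79) in SCC25. SERPINB9, the granzyme B inhibitor, fell in SCC1 (-0.84, SE 0.15, edgeR adjusted p = 0.00048), had 0.35 (SE 0.24, edgeR adjusted p = 0.33) in SCC25 and was under the filter in SCC6. SERPINB1 and SERPINB9 rose with day with PBS in SCC1 (0.31, SE 0.03, and 0.24, SE 0.03, edgeR adjusted p = 0.0059 and 0.010) and in SCC25 (0.17, SE 0.03, and 0.23, SE 0.06, edgeR adjusted p = 0.0019 and 0.019).

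Of 9 proteases that members of the cluster are known to inhibit, or close relatives of these, 7 were tested in each line, and CTSG and CMA1, the targets of SERPINB4, were not. With cetuximab, 4 passed the threshold in SCC1 (1 higher, 3 lower), 4 in SCC6 (1 higher, 3 lower) and 2 in SCC25 (1 higher, 1 lower), with medians of -0.39, -0.47 and -0.04, where 44.8%, 30.1% and 18.3% of all genes passed it. PLAU, urokinase and a target of SERPINB2, fell in all 3 lines, by 1.45 log2 (SE 0.17) in SCC1, 1.71 (SE 0.30) in SCC6 and 0.29 (SE 0.09) in SCC25 (edgeR adjusted p = 2.8e-05, 0.0014 and 0.038). PLAT, tissue plasminogen activator and the other named target of SERPINB2, was added after its values were seen. It had 0.18 (SE 0.15) in SCC1 and 0.1 (SE 0.52) in SCC6 (edgeR adjusted p = 0.34 and 0.9). Its median daily ratio to PBS in SCC25 was -0.54 log2. FURIN, the target of SERPINB8, fell by 0.49 (SE 0.10) in SCC1 (edgeR adjusted p = 0.002) and had -0.01 (SE 0.30) in SCC6 and -0.37 (SE 0.14) in SCC25 (edgeR adjusted p = 0.99 and 0.083). CTSL, a target of SERPINB13 and SERPINB3, fell in SCC1 (-0.63, SE 0.10, edgeR adjusted p = 0.00018) and SCC6 (-0.48, SE 0.10, edgeR adjusted p = 0.0039), with -0.04 (SE 0.04, edgeR adjusted p = 0.63) in SCC25. CTSK, the other named target of SERPINB13, was added after its values were seen, and rose in SCC6 (0.70, SE 0.23, edgeR adjusted p = 0.037) and SCC25 (0.36, SE 0.08, edgeR adjusted p = 0.0069), with 0.34 (SE 0.23, edgeR adjusted p = 0.25) in SCC1. CTSV, a relative of CTSL, rose in SCC1 (0.70, SE 0.20, edgeR adjusted p = 0.012) and had -0.47 (SE 0.22) in SCC6 and 0.00 (SE 0.09) in SCC25 (edgeR adjusted p = 0.13 and 0.99).

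Of the 12 suprabasal squamous genes, 2 of 7 tested rose with cetuximab in SCC1, 1 of 6 fell in SCC6 and none of 8 passed the threshold in SCC25 with edgeR, where 1 gene had an unadjusted p under 0.05. The shares of all genes were again 44.8%, 30.1% and 18.3%. The 2 in SCC1 were KRT13 (5.63, SE 0.60, edgeR adjusted p = 1.4e-05) and TGM1 (1.96, SE 0.29, edgeR adjusted p = 0.00016). KRT13 had -0.43 (SE 0.34, edgeR adjusted p = 0.37) in SCC6, where SERPINB13 was higher with cetuximab, and 0.62 (SE 0.51, edgeR adjusted p = 0.43) in SCC25. IVL had 0.75 (SE 0.57), -0.23 (SE 0.34) and 1.22 (SE 0.42), and KRT10 -0.05 (SE 0.14), 0.03 (SE 0.13) and 0.11 (SE 0.10), in SCC1, SCC6 and SCC25, none past the threshold. The summed level of the 6 squamous epithelial markers was 1660 to 2700 CPM with PBS and 5350 to 6600 CPM with cetuximab in SCC1, 1770 to 2870 and 2020 to 2480 CPM in SCC6, and 9330 to 13100 and 11000 to 12400 CPM in SCC25. Most of the SCC6 sum was DSP and CDH1, with means of 1270 and 757 CPM with PBS. The summed fibroblast markers (5 genes) were 20.7 to 32.5 and 48.9 to 145 CPM in SCC1, 2.78 to 4.99 and 8.76 to 97.1 CPM in SCC6, and 115 to 138 and 147 to 232 CPM in SCC25. The summed leukocyte markers (5 genes, mostly CD68) were 18.6 to 53.4 and 8.35 to 16.7 CPM in SCC1, 16.6 to 19 and 3.96 to 7.21 CPM in SCC6, and 166 to 233 and 146 to 175 CPM in SCC25, while PTPRC, which defines leukocytes, had at most 0.301 CPM in any library, and 0.0475 to 0.153 CPM with PBS and 0.153 to 0.301 CPM with cetuximab in SCC25. The endothelial markers (3 genes) summed to at most 2.78 CPM. The part of these sums in the values of the serpins was not tested.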

How the data were processed

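The 33 libraries were poly(A)-enriched and prepared with a stranded kit, and were sequenced on a HiSeq. Transcript levels were estimated by the authors with Salmon (version 0.8.2 and the builds hg19 and GRCh37, per the submitters' processing notes) and imported with tximport, and the values that the authors deposited are estimated counts per gene symbol, not normalised between libraries. The transcript annotation and the strand setting were not given in the sources used here. The counts, 28508758 to 80727478 in a library, were rounded and tested with edgeR 4.0.16 under R 4.3.3 (filterByExpr, TMM, quasi-likelihood F test, two-sided, Benjamini-Hochberg adjustment over all genes tested, threshold 0.05). SE is the log2 value divided by the square root of F. The comparisons were cetuximab minus PBS on days 1 to 5 within each line, PBS levels between lines over days 0 to 5, the slope with day over the 6 PBS libraries of a line, and the treatment-by-day term over days 1 to 5.

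The members and gene lists were chosen with earlier results of these data known. The named genes are all members, the flanking genes and SERPINB1, SERPINB6 and SERPINB9, up to 4 genes of highest mean CPM of the protease and suprabasal lists, and the 3 genes most similar to SERPINB13 and to SERPINB2 where a gene's log2(CPM + 0.1) averaged 0 or more. Gene positions came from GENCODE v44 lifted to GRCh37, promoters from RefSeq on GRCh38.p14, and figures were drawn with matplotlib 3.10.9 from tables made with pandas 2.3.3 and numpy 2.4.6. The fits were tested on simulated data. Libraries of 1 labelled day in 1 line deviated from their treatment means with a correlation across genes of 0.11 to 0.22 in SCC25, 0.060 to 0.19 in SCC1, and -0.065 to 0.29 in SCC6. Against PBS day 1, which came from another flow cell, 2a and 2b had -0.22 and -0.26. Other unlike days were not compared, so how far day pairs the libraries was not settled in any line. The alternatives were DESeq2 1.42.0, DESeq2's size factors, no filter, each library left out, day as a block, day 0 added, days 1 to 5, 1 flow cell, flow cell as a covariate, and 2a or 2b as day 1.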

Additional observations from a re-analysis of the deposited data

Results flagged for a closer look

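In SCC1 with PBS, SERPINB3 had 2.04 CPM on day 5, a library whose gap to the nearest of the other 5 was 0.72 of the whole range. Of the 40 groups of members with enough counts this was 1, where chance alone marks about 1 group in 20. Day 5 is also the single SCC1 PBS library from the flow cell of the cetuximab libraries.

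The daily log2 ratio of cetuximab to PBS of SERPINB5 was above 0 on all 5 days in SCC1 (median 0.61) and below 0 in all 5 cetuximab libraries of SCC6 (median -0.79) and of SCC25 (median -0.34). This difference between lines was not tested.

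The slope with day differed between the treatments by 0.22 log2 per day for SERPINB5 in SCC1, and by -1.21 for SERPINB2, -1.02 for SERPINB10 and -0.25 for SERPINB8 in SCC6, each by the treatment-by-day term of the fit. With 2b taken as day 1, no call of a member was kept in SCC6. Cetuximab days 4 and 5 of SCC6 came from a flow cell without a PBS library. In SCC1, the call of SERPINB5 was lost whichever cetuximab library was left out.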

How the results depend on the processing

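Depth limits SERPINB11, SERPINB12, SERPINB10 and, in SCC6, SERPINB3, SERPINB4 and SERPINB13, where changes were not detectable or rest on few counts. Days stand in for replicates, and flow cell and treatment are shared unevenly. Of the members' tested values, 287 under other settings and 718 with a library left out kept their side of the threshold, 14 and 9 gained a call, 10 and 43 lost one, and no value past it changed sign under any alternative. For the cetuximab contrasts, the flow cell as a covariate lowered the count of genes called from 8061 to 4099 in SCC1 and from 3496 to 1364 in SCC25, and leaving out a library gave 2193 (cetuximab day 4) to 4006 genes in SCC25.

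For the slope with PBS in SCC1 (474 genes, 0 members), DESeq2 called 1485 genes and 2 members, days 1 to 5 gave 99 genes, the libraries of 1 flow cell 1575 genes and 3 members, no filter 2 members, and leaving out a library 24 (PBS day 1) to 1575 genes (PBS day 5) and 0 to 3 members. In SCC6 (5812 genes, 3 members), days 1 to 5 gave 1892 genes, 1 flow cell 1324, and leaving out a library 1892 (PBS day 0) to 7137 genes and 1 to 3 members. In SCC25 (2147 genes, 3 members), days 1 to 5 gave 1090 genes and leaving out a library 1090 (PBS day 0) to 2279 genes. For the treatment-by-day term in SCC1 (103 genes, 1 member), DESeq2 called 420 genes and 2 members, no filter 250 genes and 3 members, and leaving out a library 5 (cetuximab day 5) to 334 genes (PBS day 1) and 0 to 2 members. In SCC6 (4886 genes, 3 members), 2b as day 1 gave 2985 genes and 0 members, and leaving out a library 650 (PBS day 1) to 5957 genes and 1 to 3 members. In SCC25 (0 genes), DESeq2 called 30 genes and 1 member, no filter 12 genes, and leaving out a library 0 to 150 genes (cetuximab day 3) and 0 to 2 members. PBS levels of SCC1 against SCC6 (4 members) gave 2 to 5 members with a library left out. The cause of these shifts was not tested, except that fewer libraries enter the fits of days 1 to 5, of 1 flow cell and without a library.

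Day as a block gave 0 members in place of 1 for the treatment-by-day term of SCC1, where SERPINB5 had an edgeR adjusted p of 0.062, and 1 gene in place of 0 in SCC25. In the PBS levels of SCC1 against SCC6 the block added SERPINB4 (2.21, edgeR adjusted p = 0.00098) and lost SERPINB8 (0.26, edgeR adjusted p = 0.06), and in SCC6 with 2b as day 1 it lost SERPINB8 (-0.15, edgeR adjusted p = 0.053). The block changed no other call of a member.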
